A study of Mus musculus with 7 samples.

Results

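The carbonic anhydrases described here are 9 genes, Car2, Car3, Car4, Car5b, Car8, Car9, Car12, Car13 and Car14, measured by all 11 non-control probes that carry these names among 39429 probes of an Agilent mouse array. Car4 and Car8 have 2 probes each. The family was chosen by the measured difference of Car12, strongly lower in 1 group, so the Car12 difference is given below as a description and without a test. Whether values also guided the choice of the other 8 names is not known. Of the 11 probes, 8 were bright enough to be tested, and they cover 8 of the 9 genes.

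Carbonic anhydrases are zinc enzymes that turn carbon dioxide and water into bicarbonate and a proton, and back. In skeletal muscle they help carbon dioxide leave the fibre and buffer the acid that contraction produces, working beside bicarbonate transporters, sodium-proton exchangers and lactate carriers. Family members differ mainly in where they sit, in the cytosol, in the mitochondrial matrix, or on the cell surface with the active site facing outwards.

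The cells were C2C12, a mouse muscle line whose myoblasts fuse into myotubes on low serum. Exosomes, small vesicles that cells release, were gathered from other C2C12 myotubes that had received palmitate at 0.5 mM (EXO-Palm, n = 3 arrays) or BSA, the palmitate carrier, alone (EXO-BSA, n = 4 arrays), and recipient cells were incubated with them for 24 h. The study's text calls these exosomes EXO-Post Palm and EXO-Post BSA, since they were collected after palmitate had been removed. The comparison asks what exosomes of palmitate-treated muscle cells change in the RNA of the cells that take them up. Neither group went without exosomes, both carry BSA exposure of the donor cells, and no gene was altered in either. The labels call the arrays biological replicates, but all come from 1 cell line, so p-values measure the spread between cultures of that line.

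RNA was labelled with Cyanine-3 and hybridised to 1-colour arrays on 4 slides. Values below are log2 of the deposited intensity minus the 75th percentile of the same array, so that 0 is that percentile, taken over non-control spots, and each unit is a doubling. That percentile lay between 549.4 and 1621 on the intensity scale, and the share of probes well above background ran from 48.5 to 70.3%. Correlations between arrays were 0.962 to 0.984 within EXO-BSA, 0.948 to 0.969 within EXO-Palm and 0.947 to 0.984 between the groups. Because probes differ in how brightly they bind, levels are compared between arrays and never between genes.

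The cell line field of the labels counts up from C2C12 from sample to sample, whereas their source field reads C2C12 throughout. The labels give the cell type as myoblast, whereas the study's text describes myotubes. All 16 myotube markers on the array were well above background on all 7 arrays, with a summed level of 1230 to 1500 times the array's 75th percentile in EXO-BSA and 970 to 1130 times in EXO-Palm. None of the 16 passed an adjusted p of 0.05 in limma, beside 0.561% of the 17477 genes tested by 1 probe each. An unadjusted limma p under 0.05 was found for 2 of 16, near the 10.2% of all tested genes. On the lower side were 14 of 16, against 53.5% of all tested genes. The groups did not overlap for 3 of 16 (Myh8, Myh3 and Myh2, all lower), beside 11.4% of all tested genes in either direction. The log2 differences ran from -0.89 for Chrna1, a subunit of the acetylcholine receptor, to 0.35 for Ckm, muscle creatine kinase. Cycling myoblast markers were well above background for 7 of 8 genes (Myf5 was not, on any array), with a summed level of 3.36 to 3.88 in EXO-BSA and 9.92 to 24.9 in EXO-Palm. Of the 7 tested, 6 were on the higher side and 4 passed the threshold. These 4 were the mitotic genes Ccnb1 (log2 difference 2.76), Aurka (2.40), Top2a (2.36) and Mki67 (2.12). Cdk1 (2.44, limma, adjusted p = 0.133) and Ccna2 (1.5, limma, adjusted p = 0.122) were also higher without overlap but did not pass. Pax7 was lowest at -0.21 (limma, adjusted p = 0.852). Without EXO-BSA replicate 1 no probe on the array passed the same threshold, those of Ccnb1, Aurka, Top2a and Mki67 included. Macrophage markers summed to 7.17 to 17.6 in EXO-BSA and 4.90 to 5.74 in EXO-Palm, with Csf1r and Itgam, of 5 genes on the array, well above background throughout, and log2 differences from -1.63 for Itgam to 0.58 for Emr1. Endothelial markers summed to 4.15 to 5.28 and 3.05 to 6.20, Kdr and Pecam1 had log2 differences of -0.07 and -0.03, and Cdh5 and Tek were not well above background anywhere. Adipocyte markers (0.107 to 0.188 and 0.105 to 0.132) and erythroid markers (0.143 to 0.259 and 0.164 to 0.207) were dim, with Cidec at -0.35 the only adipocyte marker tested, and Hba-a1 at -0.58 the lowest erythroid one. None of these other markers passed the threshold. The summed levels of the myotube, cycling and macrophage lists did not overlap between the groups, and their part in the carbonic anhydrase values was not tested. A sum follows its brightest genes. Of the 3 macrophage markers tested, 2 were on the higher side (Emr1 at 0.58 and Csf1r at 0.45) and 1, Itgam, on the lower. In a culture measured in bulk, fewer cells of a type and less RNA per cell cannot be told apart.

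The probes are 60 bases long. The first 30 bases are shown for Car12, whose difference led to the family, for Car2 and Car3, whose groups did not overlap, and for the pair of Car4 probes, of which 1 was bright and the other stayed at background. The array annotation places them on the mouse build mm9, and the annotation used here does not say which exon or untranslated region they lie in.
Car12 probe, chr9:66614542-66614601, plus strand: gccactgtgataattgtctgctcagcattt
Car2 probe, chr3:14900206-14900265, plus strand: cctctcatccgttgtgcttactaacaaaat
Car3 probe, chr3:14871781-14871840, plus strand: acatgcaaccgcagtgccttttgacatgat
Car4 bright probe, chr11:84779487-84779546, plus strand: tgacctcctccccagccccccaattaaatg
Car4 dim probe, chr11:84777667-84777726, plus strand: tgcacctgcactggtcaaatgggaatgaca
No member probe shared more than 11 bases in a row with a probe of another carbonic anhydrase. Of the 11 probes, 10 shared no run of 16 bases with a probe of any other gene on the array, as did 85.4% of 986 probes examined across it. The exception was 1 of the 2 Car8 probes. Only exact runs between array probes were compared, not probes with transcripts. What else a probe can bind, that of Car9 included, was therefore not tested.

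Car12 encodes a carbonic anhydrase that spans the plasma membrane and works outside the cell. Its probe gave -1.30, -1.10, -1.65 and -0.70 on EXO-BSA replicates 1 to 4, and -3.39, -3.92 and -3.81 on EXO-Palm replicates 1 to 3. The groups did not overlap, and the lowest EXO-BSA array lay well above the highest EXO-Palm array. On the intensity scale the probe gave 472, 420, 272 and 445 in EXO-BSA and 155, 42.7 and 39.1 in EXO-Palm. It was well above background on all 4 EXO-BSA arrays and on 2 of 3 EXO-Palm arrays, the exception being replicate 2. The means were -1.19 ± 0.39 (SD, n = 4) and -3.71 ± 0.28 (SD, n = 3), a log2 difference of -2.52 with a standard error of 0.270, which is 5.74-fold lower. Within slide 1, which held EXO-BSA replicates 1 and 2 with EXO-Palm replicate 1, the log2 difference was -2.19, and within slide 3, which held EXO-BSA replicate 4 with EXO-Palm replicate 3, it was -3.11. The size depended on how background was handled, with a log2 difference of -1.78 after normexp correction of the spot intensities.

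**Figure D1:**
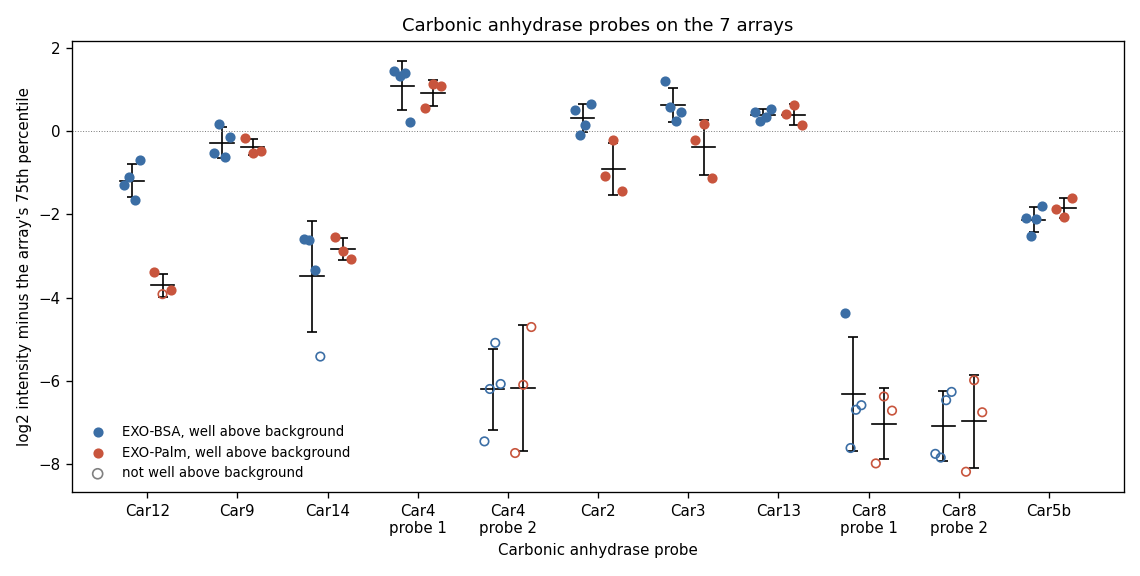
Log2 intensity minus the 75th percentile of the array (y axis) for each of the 11 carbonic anhydrase probes (x axis), with 1 point per array in EXO-BSA (blue, n = 4) and EXO-Palm (red, n = 3). Open points were not well above background, lines are means and bars are SD. Car12 lay between -1.65 and -0.70 in EXO-BSA and between -3.92 and -3.39 in EXO-Palm, while most other probes overlapped.

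Car9 is the other member with a transmembrane anchor and an active site outside the cell that is widely known for its induction by low oxygen. It gave -0.53, 0.18, -0.62 and -0.13 in EXO-BSA and -0.16, -0.52 and -0.48 in EXO-Palm, well above background on all 7 arrays. The groups overlapped entirely, since every EXO-Palm value lay within the EXO-BSA range. The log2 difference was -0.11 with a standard error of 0.253 and a 95% interval of -0.68 to 0.47 (limma, adjusted p = 0.919), and it was 0.13 after normexp correction.

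Car14, a further transmembrane form known from the muscle membrane, was dim. It gave -2.60, -2.61, -3.33 and -5.42 in EXO-BSA and -2.55, -2.87 and -3.07 in EXO-Palm, so that EXO-BSA replicate 4, which was not well above background, lay far below the other 6 arrays. The log2 difference of 0.66 had a standard error of 0.631 (limma, adjusted p = 0.766) and was 0.02 without that array.

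Car4 is tied to the outer face of the membrane by a lipid anchor. Its bright probe gave 1.45, 1.33, 1.39 and 0.22 in EXO-BSA and 0.56, 1.13 and 1.08 in EXO-Palm, and EXO-BSA replicate 4 was again the lowest array. The log2 difference was -0.18 with a standard error of 0.337 and a 95% interval of -0.94 to 0.59 (limma, adjusted p = 0.896). It was -0.83 within slide 1 and 0.86 within slide 3, opposite in sign, and -0.47 without EXO-BSA replicate 4. The dim Car4 probe ran from -7.74 to -4.71, was not well above background on any array and was not tested, so the gene is described by 1 probe only.

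Car2, a fast cytosolic enzyme found in many tissues, gave 0.51, -0.09, 0.16 and 0.66 in EXO-BSA and -1.08, -0.21 and -1.44 in EXO-Palm. The groups did not overlap, but EXO-Palm replicate 2 lay just below EXO-BSA replicate 2. The means were 0.31 ± 0.34 (SD, n = 4) and -0.91 ± 0.63 (SD, n = 3), a log2 difference of -1.23 with a standard error of 0.328, or 2.34-fold lower. The difference did not pass the limma threshold over all tested probes (adjusted p = 0.221), with an unadjusted limma p of 0.00502. An exact permutation of the arrays between groups of 4 and 3, with 35 possible splits, gave p = 0.0286, 2-sided. That is the smallest p the permutation can give, and it is not adjusted for the number of genes. It rests on the same values as the absence of overlap, so it is no separate support. The same permutation gave p = 0.229 for Car5b, 0.6 for Car14, 0.657 for Car4 and 0.686 for Car9, and a larger value for Car13. The log2 difference was -1.30 within slide 1 and -2.10 within slide 3.

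Car3, the cytosolic form that is abundant in slow and oxidative muscle fibres although it is a weak hydratase, gave 1.20, 0.57, 0.24 and 0.47 in EXO-BSA and -0.22, 0.17 and -1.12 in EXO-Palm. As with Car2, the groups did not overlap, the closest arrays being EXO-Palm replicate 2 and EXO-BSA replicate 3, and EXO-Palm replicate 3 was the lowest. The means were 0.62 ± 0.41 (SD, n = 4) and -0.39 ± 0.66 (SD, n = 3), with a log2 difference of -1.01 and a standard error of 0.351, or 2.02-fold lower. It did not pass the threshold either (limma, adjusted p = 0.377, unadjusted p = 0.0189, exact permutation p = 0.0286). Without EXO-Palm replicate 3 the log2 difference was -0.65 for Car3 and -0.96 for Car2.

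Car13, a cytosolic enzyme encoded on chromosome 3 like Car2 and Car3, showed neither direction. It gave 0.45, 0.25, 0.34 and 0.54 in EXO-BSA and 0.41, 0.64 and 0.15 in EXO-Palm. The log2 difference was 0.00 with a standard error of 0.205 and a 95% interval of -0.46 to 0.47 (limma, adjusted p = 0.998).

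Car8 codes for a protein of the family that has lost catalytic activity. Both of its probes lay near background. The brighter was well above background on EXO-BSA replicate 1 alone, with -4.38 there against -7.99 to -6.38 on the other 6 arrays, and the other probe on no array, with values of -8.19 to -5.99. Neither was tested, and no level can be given for Car8 beyond this.

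Car5b, which works in the mitochondrial matrix and supplies bicarbonate to enzymes there, gave -2.09, -2.52, -2.11 and -1.79 in EXO-BSA and -1.87, -2.07 and -1.60 in EXO-Palm. The groups overlapped. The log2 difference was 0.28 with a standard error of 0.237 and a 95% interval of -0.26 to 0.82 (limma, adjusted p = 0.738).

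Of the 7 tested probes other than that of Car12, 0 passed an adjusted p of 0.05 in limma, and 0.533% of the 21589 probes tested on the array did (100 higher and 15 lower). By an unadjusted limma p under 0.05 the count was 2 of 7, Car2 and Car3, beside 10.0% of all tested probes. The methods' t-test called 0 after adjustment and 1, Car2, without it. Groups did not overlap for the same 2 probes, both lower. Over all tested probes the groups did not overlap for 11.3%, made up of 5.87% lower and 5.40% higher. The median log2 difference was -0.11 for the 7 probes and -0.02 for all tested probes. With 2 genes, no statement about the family as a whole follows from these shares.

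**Figure D2:**
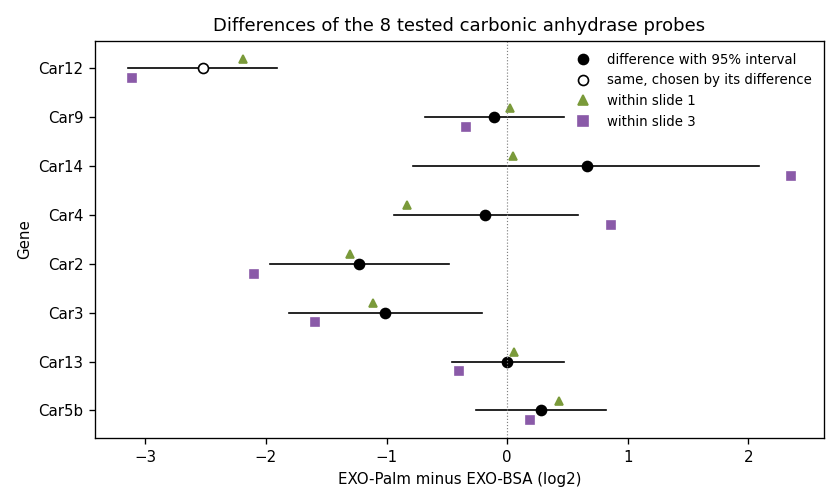
Log2 difference of EXO-Palm minus EXO-BSA (x axis) for the 8 carbonic anhydrase probes bright enough to be tested (y axis). Points carry 95% intervals of the limma fit, beside the differences within slide 1 (triangles) and slide 3 (squares). Car12, the open point at -2.52, chose the family, so its interval is a description and no test. Car2 and Car3 lay at -1.23 and -1.01 and were lower on both slides, whereas Car4, Car9 and Car13 differed in sign between the slides.

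The family has other members outside the set. Car1, Car5a, Car6, Car7, Car10, Car11 and Car15 are on the array, and 5 of these 7 genes were tested. None passed the limma threshold or had an unadjusted p under 0.05, by 1 probe per gene. Of all 17477 genes tested in that way 0.561% passed, 10.2% had an unadjusted limma p under 0.05, and the groups did not overlap for 11.4%, shares that also stand behind the lists that follow. Their median log2 difference was -0.04, from -0.31 for Car15 to 0.39 for Car11. Car5a, the mitochondrial counterpart of Car5b, and Car10 were not well above background on any array.

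Bicarbonate transporters move the product of these enzymes across the membrane. Of 14 such genes 9 were tested, and none passed the threshold or had an unadjusted p under 0.05. The median log2 difference was 0.03, with 5 genes on the higher and 4 on the lower side. The ends were Slc26a7, an anion exchanger, at -0.29 and Slc4a1, the chloride-bicarbonate exchanger of red cells, at 0.46, also an erythroid marker, both well above background on only 5 of 7 arrays.

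Sodium-proton exchangers and lactate-proton carriers handle the other product, the proton. None of the 9 tested genes of 14 passed the limma threshold, and 1, Slc16a3, had an unadjusted p under 0.05. Slc16a3, the carrier by which glycolytic muscle exports lactate, gave 1.46, 1.05, 0.96 and 1.20 in EXO-BSA and 0.16, 0.37 and 0.68 in EXO-Palm, without overlap. Its log2 difference was -0.76 with a standard error of 0.223 (limma, adjusted p = 0.272), and a second probe gave -0.64, also without overlap. Bsg, the chaperone of such carriers, had the highest log2 difference at 0.49 (adjusted p = 0.625). The median of the list was -0.06.

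Carboxylases and the first enzymes of urea and pyrimidine synthesis use bicarbonate as a substrate. Of 9 genes 8 were tested, none passed, 1 had an unadjusted p under 0.05, and the median log2 difference was -0.12. Pcx, mitochondrial pyruvate carboxylase, gave 2.82, 2.44, 2.52 and 2.47 in EXO-BSA and 1.53, 2.03 and 1.01 in EXO-Palm. These groups did not overlap, and the log2 difference was -1.04 with a standard error of 0.268 (limma, adjusted p = 0.204). As for Car2 and Car3, EXO-Palm replicate 2 was the EXO-Palm array nearest to EXO-BSA and replicate 3 the lowest. Cad, of pyrimidine synthesis, was highest at 0.62 (adjusted p = 0.73), with EXO-BSA replicate 4 at -5.78 against -4.06 to -3.45 elsewhere.

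Car9 and Car12 are known targets of hypoxia-inducible factor, and 19 further targets were measured. All 19 were tested and none passed the limma threshold, 2 had an unadjusted p under 0.05, 10 were on the higher side and 9 on the lower, and the median log2 difference was 0.06. Adm, which codes for the vasodilator adrenomedullin, gave -3.50, -2.82, -2.93 and -3.67 in EXO-BSA and -1.97, -2.17 and -1.76 in EXO-Palm, higher without overlap. Its log2 difference was 1.26 with a standard error of 0.268 (limma, adjusted p = 0.121). P4ha1, a prolyl hydroxylase of collagen synthesis and the other gene with an unadjusted p under 0.05, went the other way. It gave 1.03, 0.59, 0.87 and 1.07 in EXO-BSA and 0.54, -0.12 and 0.35 in EXO-Palm, lower without overlap, with a log2 difference of -0.64 and a standard error of 0.237 (limma, adjusted p = 0.424). A second P4ha1 probe gave -1.12, with overlapping groups and a standard error of 0.881. The counts rest on the brightest probe of each gene. For Egln3, another gene of the list, that probe gave -0.02. A second Egln3 probe gave 0.49 without overlap (limma, unadjusted p = 0.0287, adjusted p = 0.434). Pdk1, the kinase that holds back pyruvate dehydrogenase, was lowest by brightest probe at -0.68 (adjusted p = 0.609).

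**Figure D3:**
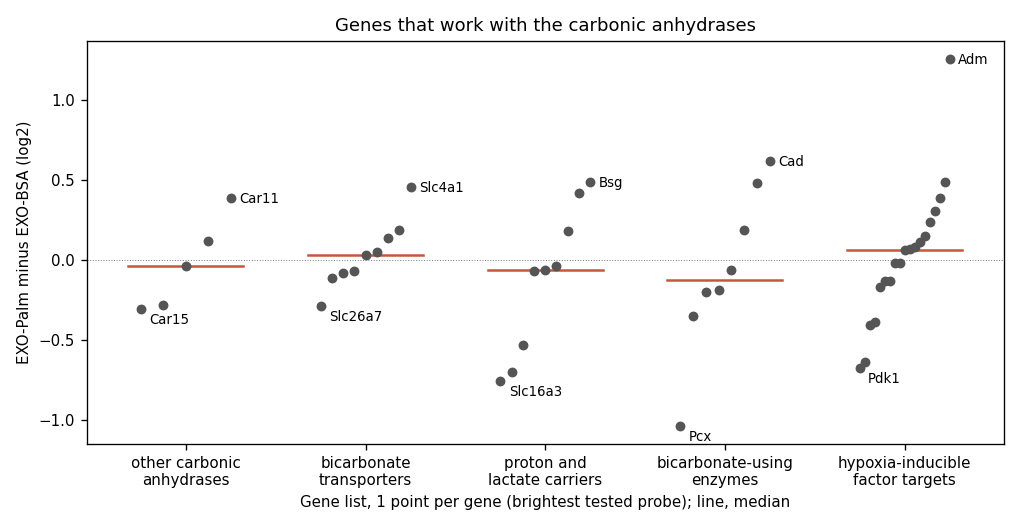
Log2 difference of EXO-Palm minus EXO-BSA (y axis) for the tested genes of 5 lists (x axis), with 1 point per gene by its brightest tested probe and a line at each median. The lowest and highest gene of each list are named. Medians lay between -0.12 and 0.06 and none of the genes passed the limma threshold.

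The promoters of Car9 and Car12 are shown because both genes are known for induction by low oxygen. The 100 bases before the start of transcription are taken from RefSeq sequences on GRCm38.p6, which list 5 of the 9 members (Car4, Car5b, Car9, Car12 and Car14). Capitals mark the core ACGTG of the hypoxia response element on either strand, read as CACGT on the other.
Car9, chr4:43506926-43507025, plus strand: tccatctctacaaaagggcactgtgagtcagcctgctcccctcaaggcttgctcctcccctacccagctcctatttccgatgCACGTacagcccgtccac
Car12, chr9:66713586-66713685, plus strand: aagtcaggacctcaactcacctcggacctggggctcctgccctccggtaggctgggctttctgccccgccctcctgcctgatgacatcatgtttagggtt
The core was found once in Car9, beginning 18 bases before the start, and not in these 100 bases of Car12. Of the 5 members listed, Car9 and Car14 held it, beside 8.1% of 32851 promoter windows of the same length. A match says only that these letters are present.

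By their values over the 7 arrays, those of Zfp185, Stra6, Nov and Col8a1 were among the probes most like that of Car12, of 21136 compared. Likeness was the root mean square difference of values centred on each probe's mean, which was 0.251, 0.254, 0.310 and 0.449 on the log2 scale in that order, against a spread of 1.28 of the Car12 values about their own mean. The measure contains the group difference itself, which was between -2.83 and -2.06 for these 4. Zfp185, which codes for a protein of the actin cytoskeleton, gave -2.89, -2.92, -3.07 and -2.45 in EXO-BSA and -5.00, -5.97 and -6.02 in EXO-Palm. Stra6, the cell surface receptor for retinol bound to its carrier, gave -3.32, -2.98, -3.08 and -2.90, and -4.97, -5.98 and -5.80. Nov, a secreted matrix-associated protein, gave -3.97, -3.11, -3.55 and -2.70, and -5.65, -5.51 and -5.88. These 3 probes were well above background on 5 of 7 arrays, so their lowest values lie near background. Col8a1, a collagen chain, gave 1.77, 1.19, 1.20 and 1.23 in EXO-BSA and -0.02, -0.99 and -1.13 in EXO-Palm, and was well above background on all 7 arrays.

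**Figure D4:**
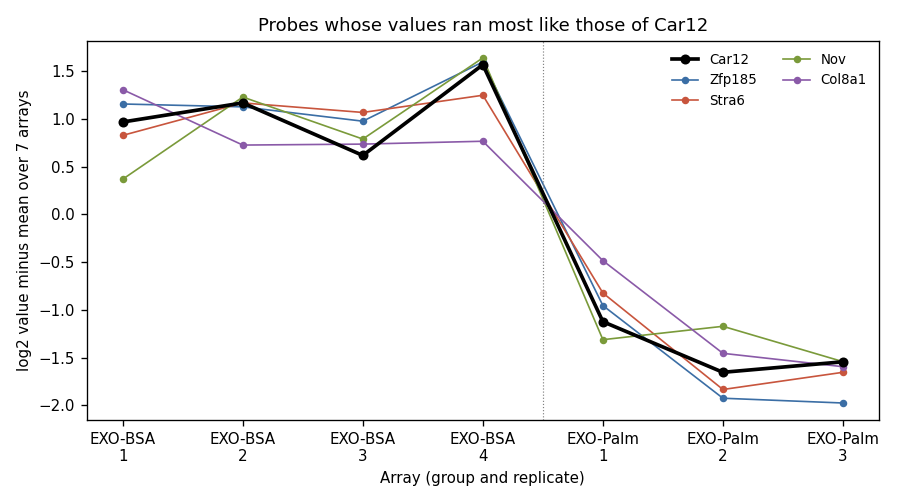
Log2 value of each probe minus its mean over the 7 arrays (y axis) on each array (x axis, group and replicate) for Car12 (black) and 4 of the probes with the smallest root mean square difference from it. All lay above their mean on the 4 EXO-BSA arrays and below it on the 3 EXO-Palm arrays.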

How the data were processed

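RNA of C2C12 cells incubated with exosomes was measured on 7 one-colour Agilent arrays (4 EXO-BSA, 3 EXO-Palm). The authors deposited scanner output for every array, whose processed signal is a background-subtracted intensity, not normalised between arrays, together with marks for spots well above background. The deposited series table, in log2 units processed by the authors, was used as an alternative. Its rows were joined to spots by order (rank correlation with the intensity of at least 0.9936). The submitters' processing notes name Agilent Feature Extraction 9.1 and limma, whereas the file headers give versions 10.7.3.1 and, for EXO-BSA replicate 3, 11.5.1.1.

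Each array's 75th percentile over 43020 non-control spots was subtracted from its log2 intensities, with spots marked as uneven or as population outliers left out and no spot saturated. Probes printed 10 times were averaged. A probe was tested if well above background on at least 75% of arrays of a group (21589 of 39429). limma 3.58.1 (R 4.3.3) compared the groups, with Benjamini-Hochberg adjustment over all tested probes and a threshold of 0.05. Sequence and figure steps used Python 3.11.15 with pandas 2.3.3, numpy 2.4.6 and matplotlib 3.10.9. The precision is limited by the number of arrays. The fit was tested on simulated data. There it recovered 76 of 100 probes given a log2 difference of 2, and 10 of 100 given a log2 difference of 1, with 0 false calls. Most differences of 1 were therefore missed at the threshold.

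The genes, lists and tests were chosen with earlier results of these data known. All 11 probes are named, and the brightest stands for a gene. From each other list, genes past the threshold and the largest rise and fall by brightest tested probe are named, with the 5 probes most like Car12, of which 1 is not reported here. The second probes of Slc16a3, P4ha1 and Egln3, and the genes P4ha1, Cdk1, Ccna2, Myh2, Myh3 and Myh8, were named after their values were seen. Accessions of all 11 probes were found in the RefSeq table. The 13 alternatives, which came to 20 settings with each array left out in turn and the t-test with and without adjustment, covered normalisation, background correction (normexp with an offset of 50, on median rather than mean spot intensities, which the file for 1 array lacks, or subtraction with a floor of 50), the authors' values, the probe filter, the slide, the replicate number, a robust fit with a trend, weights for arrays, the t-test of the study's methods and the arrays used.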

Additional observations from a re-analysis of the deposited data

Results flagged for a closer look

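On the bright Car4 probe, EXO-BSA replicate 4 stood apart from the other EXO-BSA arrays, at 0.22 against 1.33 for the nearest of them. Its gap to the nearest array was 0.904 of the range of the 4 EXO-BSA values, above Dixon's critical value for 4 samples. It was the single such value among 11 carbonic anhydrase probes, and chance alone flags about 1 in 20 groups. The log2 difference for Car4 was -0.18 with this array and -0.47 without it, and did not pass the threshold in either case. The same array was lowest for Car14 and highest for Car12, Car2, Car13 and Car5b within EXO-BSA.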

How the results depend on the processing

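The Car12 log2 difference of -2.52 stayed negative under every alternative that gave it a value, from -2.68 to -1.78. It was smaller by more than the replicate SD of 0.35 with normexp (-1.78) and with local background subtracted to a floor (-1.99), and lay between -2.68 and -2.36 as each array was left out. Car2 and Car3 also stayed lower in all 20 settings, from -1.64 to -0.89 and from -1.32 to -0.65. Car2 passed the threshold only by the methods' t-test unadjusted. Its limma adjusted p-values ran from 0.0558 (without EXO-Palm replicate 2) to 0.717 (no filter on dim probes). Car9 turned positive at 0.13 with normexp, with the floor and with the authors' values, and ran from -0.22 to 0.05 as arrays were left out. Car4 ran from -0.47 to 0.01. Car13 turned negative at -0.29 (normexp), -0.33 (floor), -0.32 (authors' values), -0.13 (slide as a fixed block, in which EXO-BSA replicate 3 and EXO-Palm replicate 2 carry no weight as the only arrays of their slides), -0.02 (slide as a random block) and -0.01 (array weights), and ran from -0.11 to 0.13 as arrays were left out. None of these values passed the threshold.

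The number of all probes past the threshold, 115, was 181 with slide as a random block, 180 with array weights, 173 with a trended and robust fit, 0 without a filter on dim probes (1900 by unadjusted p) and 0 to 202 as each array was left out (0, 44, 21 and 68 without EXO-BSA replicates 1, 2, 3 and 4, and 7, 202 and 27 without EXO-Palm replicates 1, 2 and 3). The methods' t-test called 2107 unadjusted and 0 adjusted. Unadjusted, it called 1 member other than Car12 (Car2), 1 proton or lactate carrier (Slc16a3), 1 bicarbonate-using enzyme (Pcx) and 2 hypoxia targets (Adm and P4ha1). The cause of these changes was not tested. Arrays with the same replicate number did not consistently deviate together (correlations of 0.122, -0.150 and -0.148), so no pairing by number was seen. With so few arrays per group, these correlations cannot exclude a weak pairing. The pair at 0.122 also shared slide 1. EXO-Palm and EXO-BSA arrays on the same slide gave 0.122 and 0.307 (slide 1) and 0.177 (slide 3). Those on different slides gave -0.221 to 0.202. The correlation within slide, as estimated by limma, was 0.233, and the main fit held no term for slide. With slide as a fixed block the log2 differences were -1.64 for Car2 and -1.32 for Car3. With the replicate block, in which EXO-BSA replicate 4 carries no weight, 0 of 21589 probes passed (1933 by unadjusted p), and the log2 differences were -1.11 for Car2 and -1.06 for Car3. Low intensities, as for Car14, Car8 and Car12 in EXO-Palm, limit what the arrays can resolve.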
